A study of Mus musculus with 8 samples.

Results

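The 6 genes *Sod1*, *Sod3*, *Ccs*, *Mt1*, *Mt2* and *Mt3* were read by their symbols from a count table of 55291 mouse genes in lumbar spinal cord, and all 6 passed the filter on low counts that left 19470 genes for testing. *Sod1* encodes cytosolic superoxide dismutase, *Sod3* the extracellular dismutase, *Ccs* the copper chaperone that loads SOD1, and *Mt1*, *Mt2* and *Mt3* are metallothioneins. RNA-seq was done on 8 male mice. The 4 SOD1G93A Agerfl/fl Cx3cr1Cre/+ mice, called *Ager*-deleted below, were E1776, E5231, E5248 and E5568 and carried a floxed *Ager* gene, which encodes the receptor RAGE. The 4 SOD1G93A Ager+/+ Cx3cr1Cre/+ mice, the Cre controls, were E5386, E5642, E6578 and E6732 and carried the intact gene. All 8 mice carried the human SOD1 G93A transgene, had been kept only where transgene copy number was not altered, had a tamoxifen-inducible Cre knocked into 1 copy of *Cx3cr1*, and received tamoxifen. *Cx3cr1* is a gene of microglia and other macrophages, so whole tissue holds many cells in which *Ager* was not targeted. The labels give tamoxifen at 12 weeks and an age of 120 days, whereas the text of the study gives a slightly later age at tamoxifen and places the tissue at humane end-stage, and the mice were on a C57BL/6J background. No mouse without the transgene was part of the comparison, so the values say nothing of the effect of the transgene itself.

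SOD1 is a homodimer that holds a copper and a zinc ion in each subunit and turns superoxide into oxygen and hydrogen peroxide. CCS hands copper to newly made SOD1 and helps form its internal disulfide bond, and mutations in SOD1 cause inherited amyotrophic lateral sclerosis (ALS). Metallothioneins are small cysteine-rich proteins that bind zinc and copper. In spinal cord, *Mt1* and *Mt2* are made largely by astrocytes, are induced by metals through the metal-responsive factor MTF1 and by glucocorticoids, and *Mt3* is the member most restricted to the nervous system.

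Total counts per mouse ranged from 31148047 to 40324897, a depth at which 3 counts, taken as the floor of detection, correspond to 0.0729 to 0.0975 CPM (counts of a gene scaled to the size of the library). Every value of the 6 genes lay far above it, with 440 counts as the smallest (*Sod3* in E5248). The floor covers counting error only. *Ager*, the targeted gene, was at 0.889 to 1.51 CPM in *Ager*-deleted mice and at 1.53 to 2.41 CPM in the controls, with no overlap (log2 fold change -0.81, SE 0.22, adjusted p = 0.252, edgeR exact test). The spinal cord markers were present in all mice, among them 12 of 12 astrocyte and 10 of 10 microglia genes tested. In 2 controls, E5386 and E5642, 25 skeletal muscle markers summed to 1603 and 2368 CPM against 216 to 233 CPM in the other 6 mice. Adipocyte markers summed to 184 CPM in E5386 against at most 7.19 CPM elsewhere, and a mean log2 level of liver markers stood at 5.17 in E6732 against at most 0.96. For several results that rest on those libraries, values without them are given as well. The labels do not say whether mice shared a litter or a library preparation.

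No difference between the genotypes was detected for any of the 6 genes. By the edgeR exact test, 0 of 6 had an adjusted p under 0.05, against 14 of all 19470 tested genes (0.0719%). The quasi-likelihood test called 1 gene in all (0.00514%) and none of the 6. At an unadjusted p under 0.05 in the exact test the count was again 0 of 6, with 829 genes (4.26%) in the background. In none of the 6 were the mice of the genotypes separated, whereas they did not overlap for 755 of all tested genes (3.88%). With DESeq2 (25 genes called), limma-voom (1) and an exact test on common and tagwise dispersions (78), no member was called either. Over all 20 fits, these included, with other settings and subsets of mice, the count of members called stayed at 0. How narrowly each difference was bounded, and how the 6 genes varied between mice, is set out below by their roles.

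**Figure D1:**
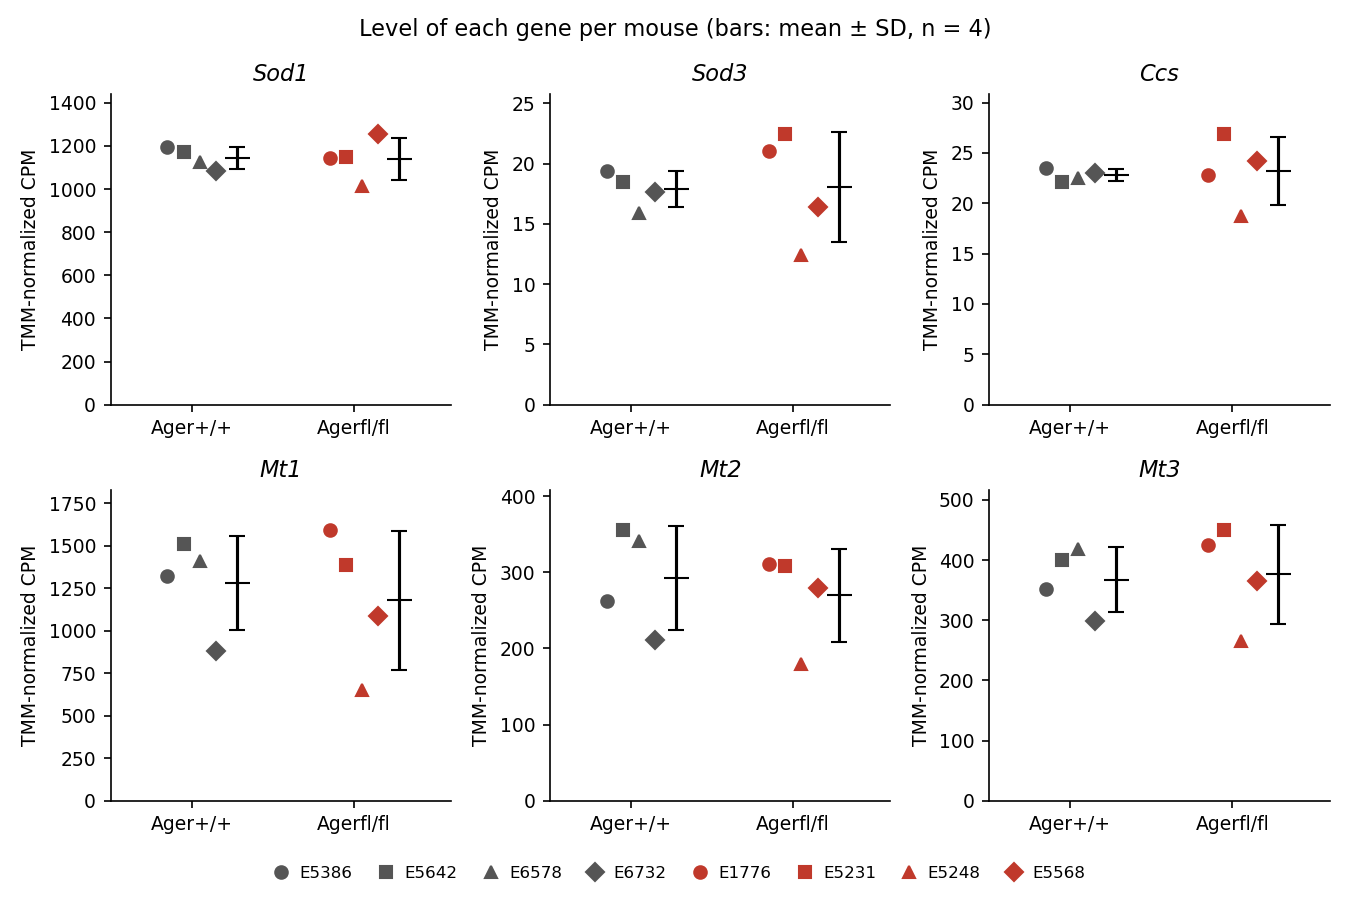
TMM-normalized CPM of each of the 6 genes (y axes from 0) in the 4 Ager+/+ (grey) and 4 Agerfl/fl (red) mice; each symbol is 1 mouse, bars are mean ± SD. In every panel the genotypes overlap, and the red triangle, mouse E5248, is the lowest of the 8 mice.

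*Sod1* lies on chromosome 16 (chr16:90220754-90226329, plus strand, GRCm38). Its level was 1143 CPM in E1776, 1149 in E5231, 1015 in E5248 and 1255 in E5568, the *Ager*-deleted mice, and 1194 CPM in E5386, 1174 in E5642, 1128 in E6578 and 1082 in E6732, the controls. Values per mouse follow the same order from here on. Both the highest mouse, E5568, and the lowest, E5248, were *Ager*-deleted, and the controls lay between them. The means were 1141 ± 98.2 and 1144 ± 49.8 CPM (SD, n = 4 each). The log2 fold change, *Ager*-deleted over control, was -0.0049 (SE 0.086, 95% interval -0.20 to 0.19, exact test adjusted p = 1), so that a fold outside 0.872 to 1.14 fell beyond the interval. The exact permutation test, with 70 possible splits of the 8 mice, gave p = 0.943, where the smallest p it can give is 0.0286. *Sod1* was among the steadier genes of the tissue: its SD of log2(CPM + 1) over the 8 mice, 0.092, was at the 29.8th percentile of the 11059 genes with a mean of at least 10 CPM.

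The reads counted on *Sod1* cannot all be assigned with certainty. *Gm8566*, a processed pseudogene on chromosome 6 (chr6:67205619-67206083, plus strand), differs from the *Sod1* transcript at 10 of 465 bases (97.8% identical), with a longest identical run of 122 bases. *Gm8566* was chosen after its values were seen. It was counted 5935 to 9457 times per mouse, which is 16.5% to 27.3% of the *Sod1* count of the same mouse. In CPM it stood at 236, 209, 168 and 222 in the *Ager*-deleted mice and at 255, 204, 307 and 189 in the controls. The highest of the 8 was control E6578 and the lowest was again E5248, with overlap between genotypes (log2 fold change -0.19, SE 0.16, exact test adjusted p = 1). With the counts of both summed, an alternative added after seeing the data, the log2 fold change was -0.036 (SE 0.093, 95% interval -0.24 to 0.17, adjusted p = 1). A second copy, *Gm8238* (87.7% identical over 457 bases), had 5 to 13 counts. At its end *Sod1* also overlaps *Scaf4* on the opposite strand, which stood at 42.6 ± 4.72 CPM in *Ager*-deleted mice and 40.0 ± 4.08 CPM in controls. The strand setting of the counting is not given in the sources used here. The human transgene was not analysed here, and what part of the counts on *Sod1* or *Gm8566* came from it was not tested.

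**Figure D2:**
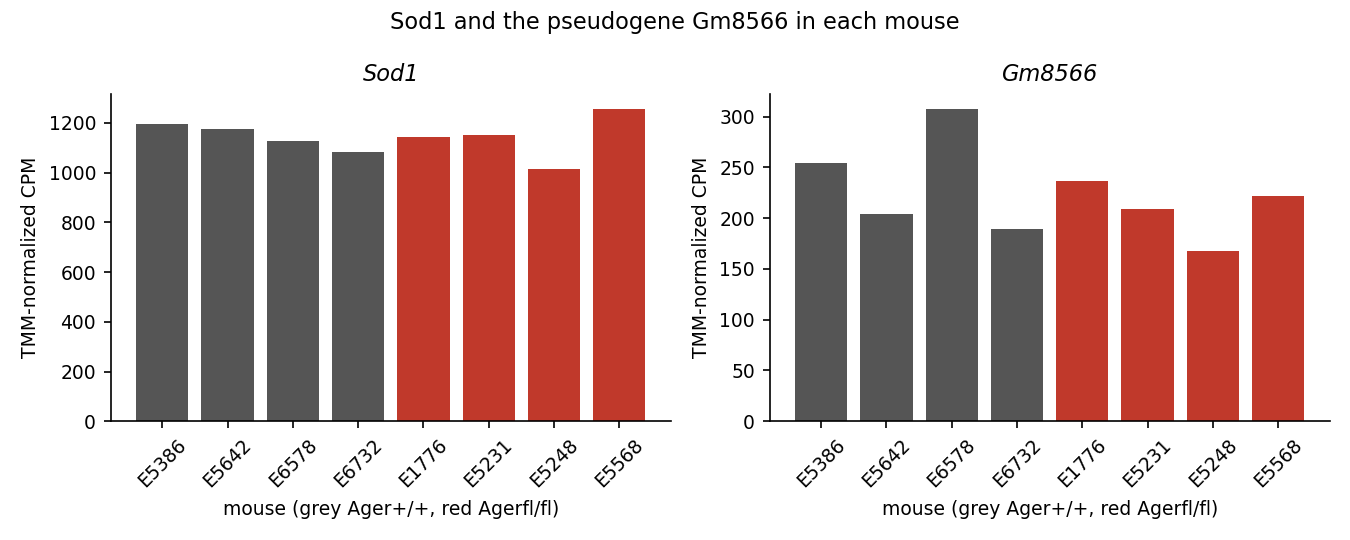
TMM-normalized CPM of Sod1 (left) and of its processed pseudogene Gm8566 (right) in each mouse, controls in grey and Ager-deleted mice in red, y axes from 0. Sod1 stays between 1015 and 1255 CPM, whereas Gm8566 ranges from 168 to 307 CPM.

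*Sod3*, the dismutase secreted to the extracellular matrix (chr5:52363791-52371418, plus strand), was expressed at a low level. The *Ager*-deleted mice had 21.1, 22.5, 12.4 and 16.4 CPM and the controls 19.4, 18.5, 15.9 and 17.7 CPM. E1776 and E5231 lay above all controls and E5248 below them. The means were 18.1 ± 4.58 and 17.9 ± 1.49 CPM (SD, n = 4 each), with a log2 fold change of 0.017 (SE 0.16, 95% interval -0.35 to 0.38, exact test adjusted p = 1; exact permutation p = 0.971). The spread among *Ager*-deleted mice, a coefficient of variation of 25.3%, was larger than among controls, 8.36%; the difference in spread was not tested. Of the 3738 bases of its transcript, 105 are 90.5% identical to *Nkiras1* in the opposite orientation. Many other transcripts matched *Sod3* over 100 bases or more at lower identity, for example *Adat1* (84.0% over 144 bases). The search kept a single match per gene and capped the number of transcripts. Further matches at 90% or higher may thus have been missed. Mitochondrial *Sod2*, the remaining dismutase, stood at 133 ± 11.7 CPM in *Ager*-deleted mice and 136 ± 6.79 CPM in controls (log2 fold change -0.039, SE 0.072, exact test adjusted p = 1). *Sod1* was counted 8.66 ± 1.17 times per count of *Sod2* in *Ager*-deleted mice and 8.42 ± 0.717 times in controls (exact permutation p = 0.743, 0.857 adjusted over 4 ratios).

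*Ccs*, the chaperone (chr19:4825366-4839332, minus strand), was at 22.9, 26.9, 18.8 and 24.2 CPM in *Ager*-deleted mice. The controls lay within a narrow band, 23.5, 22.1, 22.6 and 23.0 CPM. E5231 and E5568 were above that band, E5248 was below it and E1776 was within it. The log2 fold change was 0.023 (SE 0.099, 95% interval -0.20 to 0.24, exact test adjusted p = 1; exact permutation p = 0.914). The coefficient of variation was 14.6% against 2.60%. The ratio of *Sod1* to *Ccs* counts within a mouse, which no scaling between mice can move, compares read counts and not proteins. It also shares the uncertainty of the reads counted on *Sod1*. This ratio was 49.98, 42.8, 54.1 and 51.9 in the *Ager*-deleted mice and 50.8, 53.0, 49.99 and 47.1 in the controls. The mean ratios were 49.7 ± 4.92 and 50.2 ± 2.47 (exact permutation p = 0.857, also 0.857 adjusted over 4 ratios). The lowest ratio, in E5231, belonged to the mouse with most *Ccs*. The gene next to *Ccs*, *Ccdc87* on the opposite strand, starts 33 bases away and had 32 to 48 counts.

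**Figure D3:**
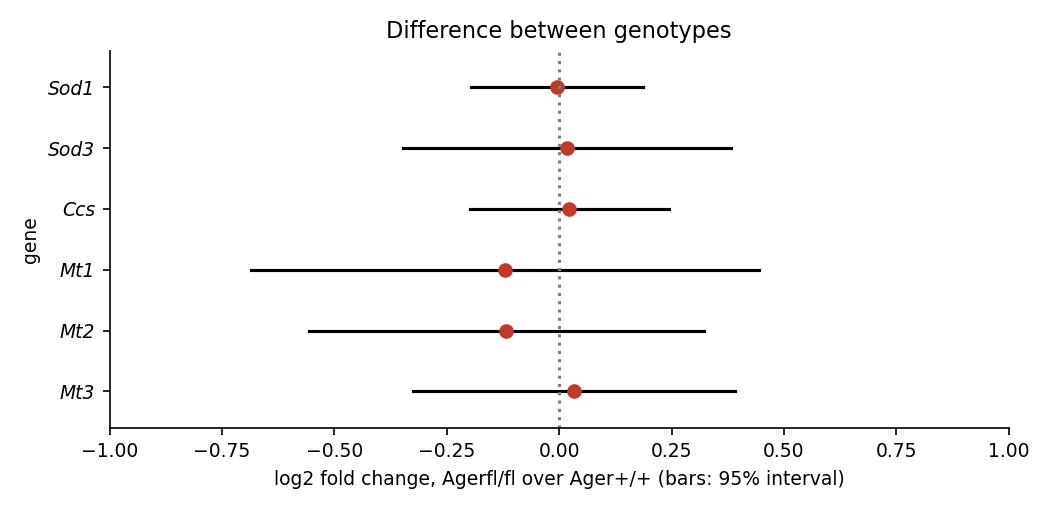
Log2 fold change of each of the 6 genes, Ager-deleted over control (dots), with its 95% interval from the quasi-likelihood fit (bars). All 6 intervals cover 0; the interval of Mt1, from -0.69 to 0.44, is the widest and that of Sod1, from -0.20 to 0.19, the narrowest.

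The 3 metallothionein genes lie in order *Mt3*, *Mt2*, *Mt1* on the plus strand of chromosome 8. Their annotated positions are chr8:94152607-94154146, chr8:94172664-94173568 and chr8:94179082-94180327. Promoter windows from RefSeq (GRCm38.p6) were matched for 4 of the 6 members, *Sod1*, *Mt1*, *Mt2* and *Mt3*. The bases before the first annotated start are shown for the metallothioneins. Matches to the core of the metal response element (TGCACNC or TGCGCNC, either strand, the motif bound by MTF1) are in capitals. Their part in the levels of these genes was not tested. The stretches shown are chr8:94178839-94179081 for *Mt1*, chr8:94172368-94172617 for *Mt2* and chr8:94152357-94152606 for *Mt3*, all on the plus strand.
Mt1: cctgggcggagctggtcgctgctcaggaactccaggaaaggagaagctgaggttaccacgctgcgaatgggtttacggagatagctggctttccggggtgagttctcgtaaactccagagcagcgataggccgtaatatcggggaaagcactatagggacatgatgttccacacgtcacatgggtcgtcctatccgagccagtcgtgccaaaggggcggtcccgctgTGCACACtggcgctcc
Mt2: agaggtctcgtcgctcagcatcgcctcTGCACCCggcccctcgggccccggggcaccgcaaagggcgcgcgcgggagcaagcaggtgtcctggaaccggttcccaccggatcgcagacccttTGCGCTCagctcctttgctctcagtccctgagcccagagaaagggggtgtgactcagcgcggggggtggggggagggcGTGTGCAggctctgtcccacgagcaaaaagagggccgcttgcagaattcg
Mt3: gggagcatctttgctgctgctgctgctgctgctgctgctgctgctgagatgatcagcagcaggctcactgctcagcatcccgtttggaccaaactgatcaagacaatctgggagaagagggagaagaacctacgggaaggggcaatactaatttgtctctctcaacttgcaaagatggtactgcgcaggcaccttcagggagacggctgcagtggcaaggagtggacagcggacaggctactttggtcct
The upstream stretch held 1 match for *Mt1*, 3 for *Mt2* and 0 for *Mt3*. It ends at the first annotated start, so bases between that start and any later one of the same gene lie outside it. Of 32851 promoter windows of 250 bases, 21.4% held at least 1 match and 1.26% at least 3. In the whole window of 300 bases, which runs past the start, the counts were 3 for *Mt1*, 4 for *Mt2*, 1 for *Mt3* and 0 for *Sod1*, and 25.7% of all such windows held at least 1, 1.97% at least 3 and 0.517% at least 4. The core of the antioxidant response element (TGACNNNGC, either strand) was found once in the *Mt2* window and once in the *Sod1* window, as in 12.4% of all windows. A match is a string of letters and not a shown site of binding.

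*Mt1* stood at 1593, 1385, 651 and 1089 CPM in *Ager*-deleted mice and at 1324, 1510, 1413 and 883 CPM in the controls. The highest mouse, E1776, and the lowest, E5248, were both *Ager*-deleted, and control E6732 was the second lowest. The means were 1179 ± 409 and 1283 ± 277 CPM (SD, n = 4 each). The log2 fold change was -0.12 (SE 0.25, 95% interval -0.69 to 0.44, exact test adjusted p = 1; exact permutation p = 0.657). The interval allows folds from 0.622 to 1.36, so a moderate change in either direction was not detectable with 4 mice per genotype. With 1 mouse left out, the log2 fold change was 0.081 without E5248, -0.30 without E1776, -0.21 without E5231, -0.26 without E6732, the control with liver markers, and between -0.11 and -0.039 in the other 4 cases. Without both E5386 and E5642, which carried muscle markers, it was 0.034.

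*Mt2* stood at 311, 308, 180 and 279 CPM in *Ager*-deleted mice and at 263, 356, 341 and 211 CPM in the controls. The genotypes overlapped, with controls E5642 and E6578 above all *Ager*-deleted mice and E5248 below all controls. The means were 270 ± 61.7 and 293 ± 68.0 CPM, with a log2 fold change of -0.12 (SE 0.20, 95% interval -0.56 to 0.32, exact test adjusted p = 1; exact permutation p = 0.657). With 1 mouse left out it was 0.035 without E5248, -0.19 without E1776 or E5231, -0.24 without E6732, the control with liver markers, and between -0.17 and -0.017 in the other 4 cases. Without both E5386 and E5642, the libraries with muscle markers, the log2 fold change was -0.039. *Mt2* overlaps the antisense gene *Gm45774*, whose transcript shares 212 of its bases and which had 240 to 505 counts against 6366 to 12246 for *Mt2*.

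*Mt3*, also known as growth inhibitory factor, stood at 425, 450, 265 and 365 CPM in *Ager*-deleted mice and at 352, 400, 419 and 299 CPM in the controls. E1776 and E5231 lay above all controls and E5248 below them. The means were 376 ± 82.2 and 368 ± 53.6 CPM, with a log2 fold change of 0.033 (SE 0.16, 95% interval -0.33 to 0.39, exact test adjusted p = 1; exact permutation p = 0.943). *Mt4*, the remaining mouse metallothionein and a gene of squamous epithelium, had 0 counts in 6 mice and 1 count in each of 2 controls, and was not tested. The transcripts of *Mt1* and *Mt2* are 79.2% identical over 192 bases and those of *Mt1* and *Mt3* 73.4% over 158 bases, and no other transcript was at least 90% identical to *Mt1* or *Mt3* over 100 bases or more.

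Compared per kilobase of the main annotated transcript, *Mt1* (1185 to 2902 CPM per kb over the 8 mice) and *Sod1* (1584 to 1958) were the most abundant, and their ranges overlapped. *Mt3* (494 to 839) and *Mt2* (352 to 696) followed, and their ranges also overlapped. *Ccs* (17.6 to 25.2) and *Sod3* (3.32 to 6.01) were far lower and overlapped with no other member. The order of the upper 4 depends on the transcript taken as the length: over all annotated exons *Sod1*, with a retained intron in its second transcript, came to 256 to 316 CPM per kb, which lay below *Mt1* (522 to 1278) and overlapped *Mt2* (306 to 605) and *Mt3* (249 to 422).

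The 6 genes had unlike spreads between mice, given here as a description. The SD of log2(CPM + 1) over the 8 mice was 0.44 for *Mt1*, 0.34 for *Mt2* and 0.27 for *Mt3*, at the 98.7th, 97.4th and 94.6th percentiles of the 11059 genes with a mean of at least 10 CPM. *Sod3* (0.25) was at the 93.5th, *Ccs* (0.14) at the 65.0th and *Sod1* at the 29.8th percentile. The metallothioneins and *Sod3* were thus among the more variable genes over these 8 mice, *Ccs* was somewhat above the middle of all genes and *Sod1* below it.

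**Figure D4:**
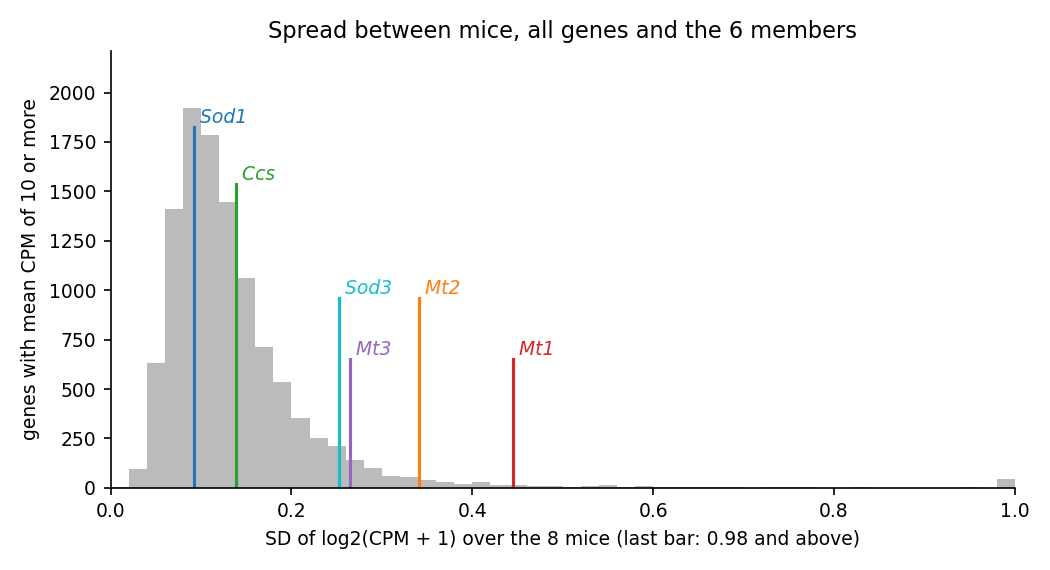
Histogram of the SD of log2(CPM + 1) over the 8 mice for the 11059 genes with a mean of at least 10 CPM (x axis, SD; y axis, number of genes), with the 6 genes marked by vertical lines of arbitrary height. Sod1 (0.092) lies in the bulk of the distribution and Mt1 (0.44) in its upper tail, at the 98.7th percentile.

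The 3 metallothioneins moved together from mouse to mouse. Over the 8 mice, Pearson's r of log2(CPM + 1) was 0.94 for *Mt1* and *Mt2* (exact permutation p = 0.00377), 0.93 for *Mt1* and *Mt3* (p = 0.00427) and 0.94 for *Mt2* and *Mt3* (p = 0.00313), each 0.0213 after adjustment over the 15 pairs of members. Spearman's rho was 0.90, 0.81 and 0.76 (exact permutation p = 0.00456, 0.0218 and 0.0368), which gave 0.0685, 0.163 and 0.184 after the same adjustment, so only Pearson's r passed it. Without the 2 mice farthest from the median, E5248 and E6732, r fell to 0.61, 0.60 and 0.64 over 6 mice, so that part of the relation rests on those mice. Without E5248 alone r was 0.87, 0.86 and 0.87 over 7 mice. Within genotypes, with each genotype's mean removed, r was 0.94, 0.96 and 0.96. The ratio of *Mt1* to *Mt2* counts ranged only from 3.62 to 5.12 while *Mt1* itself went from 651 to 1593 CPM, and the lowest ratio was in E5248. It was 4.28 ± 0.666 in *Ager*-deleted mice and 4.40 ± 0.428 in controls (exact permutation p = 0.771, 0.857 adjusted over 4 ratios). The ratio of *Mt1* to *Mt3* was 3.07 ± 0.531 and 3.47 ± 0.390 (exact permutation p = 0.314, 0.857 adjusted).

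No pair that involves *Sod1*, *Sod3* or *Ccs* passed the adjustment. All 15 values of r were positive over 8 mice, from 0.51 for *Sod1* and *Sod3* upward, but without the 2 mice farthest from the median of the first gene only 10 stayed positive, and *Ccs* with *Mt2* went to -0.52. *Sod3* and *Ccs*, at r = 0.82 over all 8 mice (exact permutation p = 0.0304, 0.114 adjusted over 15 pairs, rho = 0.57 with p = 0.151), went to -0.15 without E5248 and E5231 and to 0.54 without E5248 alone. *Sod1* and *Ccs*, enzyme and chaperone, had r = 0.66 (p = 0.0805, 0.151 adjusted; rho = 0.57 with p = 0.151) and 0.08 without E5248 and E5568, by the same exact permutation test. The relations of *Ccs* with *Sod3* and with *Sod1* rest on the mice left out. *Sod1* with *Mt1*, *Mt2* and *Mt3* had r = 0.64, 0.65 and 0.59, and 0.70, 0.51 and 0.42 without E5248 and E5568. Without E5248 alone the values were 0.16, 0.25 and 0.15.

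**Figure D5:**
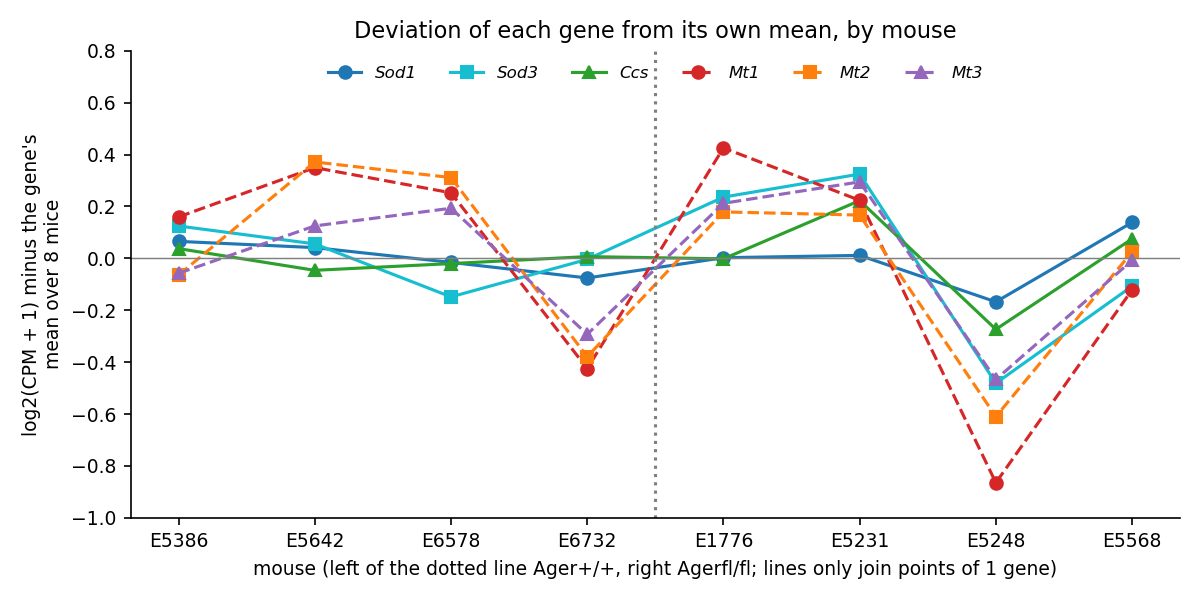
Log2(CPM + 1) of each of the 6 genes minus its mean over the 8 mice (y axis), for each mouse (x axis, controls left of the dotted line and Ager-deleted mice right of it); lines only join the points of 1 gene. All 6 genes are lowest in E5248, and the 3 metallothioneins (dashed) are also low in E6732.

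Mouse E5248 had the lowest value of all 8 mice for 6 of the 6 genes, and it was the lowest mouse for 18.1% of all tested genes (20.8% of those with a mean of at least 10 CPM). In the same mouse the 10 microglia markers summed to 1365 CPM, against 1569 to 2293 CPM in the other *Ager*-deleted mice and 1763 to 1974 CPM in the controls, and 7 of the 10 were at their lowest. The 12 astrocyte markers summed to 14492 CPM there, against 16057 to 20191 CPM in the other 7 mice, with 4 of the 12 at their lowest. The 3 mice with least *Mt1* (E5248, E6732 and E5568) were also the 3 with the lowest astrocyte sums (14492, 16520 and 16057 CPM), microglia sums (1365, 1763 and 1569 CPM) and endothelial sums (267, 306 and 257 CPM, 8 markers). They were not the lowest 3 in motor neuron, oligodendrocyte, ependymal or leptomeningeal sums, and E6732 was the highest in the last (520 CPM). For *Mt2* and *Mt3* the lowest 3 mice were others, as E5386 (263 and 352 CPM) lay below E5568 (279 and 365 CPM). The part of these markers in the spread of the 6 genes was not tested, and in bulk tissue fewer cells of a type and less RNA per cell cannot be told apart. E5248 had 34743301 counts, which is within the range of the other mice.

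The genes whose centred profile over the 8 mice was nearest, by root mean square difference of log2(CPM + 1) among 11058 genes with a mean of at least 10 CPM, are given as a description. For *Mt1* they were *Slc24a4* (0.12) and *Hspb1* (0.13), for *Mt2* *Pdlim1* (0.10) and *Pnpla7* (0.11), and for *Mt3* *Stk32a* (0.054) and *Cst3* (0.063). For *Sod3* they were *Itgb2* (0.033), an integrin subunit of leukocytes, and *Gfap* (0.046), the astrocyte filament. For *Ccs* they were *2210016F16Rik* and *Ubxn1* (0.030 each), and for *Sod1* *Lrrc28* (0.028) and *Ube2j2* (0.031). Among members, *Mt2* ranked as number 8 and *Mt3* as number 22 of the 11058 genes nearest to *Mt1*, *Mt3* as number 7 and *Mt1* as number 29 for *Mt2*, and *Mt2* as number 48 but *Mt1* as number 1710 for *Mt3*. Between enzyme and chaperone, *Ccs* ranked as number 2059 for *Sod1* and *Sod1* as number 1007 for *Ccs*.

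The wider copper, zinc and peroxide network was followed in 7 lists of 98 genes, of which 88 were tested. None of the 88 passed the threshold in either edgeR test. At an unadjusted p under 0.05 in the exact test there were 7 of the 88, beside 829 of all 19470 tested genes (4.26%). Of the 7, 1 was higher and 6 lower in *Ager*-deleted mice, beside 234 higher and 595 lower among all tested genes. The 6 include *Aoc3* and *Pdk4*, for which values without the libraries with fat or muscle markers are given below. The median log2 fold change was -0.017 over the 88 and 0.0069 over all tested genes.

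Copper transport and delivery had 19 tested genes with a median log2 fold change of -0.039. *Cp* encodes ceruloplasmin, the copper-carrying ferroxidase made by astrocytes and liver. It stood at 52.7, 65.6, 68.1 and 55.2 CPM in *Ager*-deleted mice and at 48.0, 106, 87.9 and 103 CPM in the controls. Of the controls, 3 lay above all *Ager*-deleted mice and E5386 lay below them (log2 fold change -0.51, SE 0.21, exact test adjusted p = 0.954). Without E5386, *Cp* (log2 fold change -0.72, adjusted p = 8.59e-05) and *Steap4*, a metalloreductase (-0.93, adjusted p = 0.0215), passed the threshold of the exact test, in a fit that called 72 genes in all against 14 with all mice. E5386 was the lowest control for both genes, at 3.20 CPM for *Steap4* against 12.4 to 19.5 CPM in the other 3 controls. Without both E5386 and E5642, *Cp* alone did (-0.67, adjusted p = 0.0025, same exact test, 67 genes called in all), and *Steap4* was at -0.69 (adjusted p = 0.184). Both of these fits kept E6732, the control with liver markers. Without E6732, *Cp* was at -0.42 and *Steap4* at -0.57, and neither passed, in a fit that called 89 genes in all. The 7 markers of leptomeningeal fibroblasts summed to 172, 233, 356 and 250 CPM in *Ager*-deleted mice and to 77.9, 507, 409 and 520 CPM in the controls, so that E5386 was lowest in these as well; none of the 7 was at 0. Their part in the values of *Cp* and *Steap4* was not tested. *Cmc1*, an assembly factor of cytochrome c oxidase, was 14.0 ± 0.948 CPM in *Ager*-deleted mice and 16.0 ± 0.666 CPM in controls without overlap (log2 fold change -0.19, SE 0.079, exact test adjusted p = 1). The uptake transporter *Slc31a1* (31.5 ± 2.09 and 34.8 ± 1.57 CPM) and the chaperone *Atox1* (36.5 ± 6.12 and 35.8 ± 2.48 CPM) did not pass either. They were named for their role after their values were seen, as was *Mtf1* below.

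The 10 tested copper-dependent enzymes had a median log2 fold change of -0.041. *mt-Co1*, the mitochondrial subunit of cytochrome c oxidase that holds a copper, was at 10969 ± 1907 CPM in *Ager*-deleted mice and 14007 ± 982 CPM in controls (log2 fold change -0.35, SE 0.16, exact test adjusted p = 0.901). *Aoc3*, an amine oxidase of vessels and fat, was at 0.356 to 0.705 CPM and 0.584 to 2.57 CPM (log2 fold change -1.14, SE 0.47, exact test adjusted p = 0.995), and the 2.57 CPM was in E5386, the library with adipocyte markers. Without E5386 its log2 fold change was -0.44 (exact test adjusted p = 1).

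Zinc transporters and *Mtf1* came to 24 tested genes with a median log2 fold change of -0.0043. *Slc30a3*, the transporter that fills synaptic vesicles with zinc, was at 32.9 ± 3.82 CPM in *Ager*-deleted mice and 27.3 ± 2.64 CPM in controls (log2 fold change 0.27, SE 0.097, exact test adjusted p = 0.983). *Slc30a4*, which moves zinc into vesicles, was at 46.7 ± 5.69 and 55.0 ± 3.54 CPM (log2 fold change -0.24, SE 0.089, exact test adjusted p = 1). *Mtf1* itself had a log2 fold change of 0.037 (SE 0.059, exact test adjusted p = 1).

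The 12 peroxide-removing enzymes, which act on the product of the dismutases, had a median log2 fold change of -0.027. *Gpx3*, the secreted glutathione peroxidase, was at 33.5 ± 4.70 CPM in *Ager*-deleted mice and 45.1 ± 10.6 CPM in controls, where E6732 stood at 29.4 CPM and the other 3 controls at 47.7 to 51.9 CPM (log2 fold change -0.43, SE 0.17, exact test adjusted p = 0.954). Without E6732, the control with liver markers, *Gpx3* passed the threshold (log2 fold change -0.58, exact test adjusted p = 0.00236, in a fit that called 89 genes in all). That fit kept E5386 and E5642, the libraries with muscle markers, which had the highest values of *Gpx3* (51.9 and 51.2 CPM). Without both of them its log2 fold change was -0.21, and without E5386 alone -0.36 (exact test adjusted p = 0.908). *Gpx3* passed in neither of these fits. Catalase, *Cat*, had a log2 fold change of -0.10 (SE 0.079, exact test adjusted p = 1).

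The superoxide-producing NADPH oxidases (8 tested) had a median log2 fold change of -0.091. The smallest unadjusted p belonged to *Cybb* (43.4 ± 10.9 CPM in *Ager*-deleted mice and 51.0 ± 7.56 CPM in controls, log2 fold change -0.23, SE 0.16, exact test adjusted p = 1), the catalytic subunit of phagocytes, followed by *Nox4* (log2 fold change -0.20, SE 0.20, adjusted p = 1). Of the 14 stress and glucocorticoid genes, all were tested, with a median log2 fold change of 0.054. *Pdk4*, a regulator of pyruvate oxidation that is abundant in muscle, was at 30.0 to 44.2 CPM in *Ager*-deleted mice and at 30.7 to 132 CPM in controls. Its highest values, 59.5 and 132 CPM, were in E5386 and E5642, the libraries with muscle markers (log2 fold change -0.77, SE 0.38, exact test adjusted p = 1). Without both libraries its log2 fold change was 0.12, and without E5642 alone -0.19 (exact test adjusted p = 1 in each fit). *Zbtb16*, a glucocorticoid-induced transcription factor, had a log2 fold change of 0.58 (SE 0.30, exact test adjusted p = 1).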

How the data were processed

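Lumbar spinal cord RNA of 8 male mice was sequenced from polyadenylated stranded libraries. Per the labels and methods, the authors trimmed reads with Trimmomatic 0.36, aligned them to mm10 with STAR 2.7.3a and counted GENCODE M25 genes with featureCounts (Subread 1.6.3). The authors deposited raw counts per gene without normalization, and log2 TMM-normalized CPM made in edgeR, which could be recomputed from the counts within 4.78e-06 with a prior count of 2. Mice were grouped by the genotype in their titles, and every column was matched by mouse ID.

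The counts were used for all tests. Genes were filtered with filterByExpr (minimum count 10), scaled by TMM and compared in edgeR 4.0.16 (R 4.3.3) by the exact test, which the study also names, with dispersions from estimateDisp without a design matrix (the study's dispersion setting is not given in the sources used here), and by the quasi-likelihood test, which gave SEs and 95% intervals. Benjamini-Hochberg adjustment ran over all 19470 tested genes, with a threshold of 0.05. CPM values are TMM-normalized. Permutation tests are exact and two-sided. Alternatives were other scalings, filters, dispersions and pseudocounts, DESeq2 1.42.0, limma-voom (limma 3.58.1), removal of muscle genes and mice left out. Scripts were tested on simulated data. With 1 sample per mouse, p-values measure the spread between mice.

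Members and lists were chosen with earlier results of these data known. Named were the members, in each list the genes called or else the 2 with the smallest unadjusted p, *Sod2*, *Mt4*, *Ager*, the 2 nearest profiles of each member, and overlapping or neighbouring genes where they bear on a count. GENCODE M21 on GRCm38 (mm10) gave positions, lengths and transcripts, matched by symbol (98.0% of tested genes), and promoters from RefSeq. Transcript similarity was searched with BLAST 2.17.0.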

Additional observations from a re-analysis of the deposited data

How the results depend on the processing

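Of the 6 members, 0 were called under any alternative, with adjusted p from 0.926 to 1. The signs of differences near 0 were not stable. The *Sod1* log2 fold change was 0.00017 with upper quartile scaling, 0.020 with library size only and 0.039 without E5386 and E5642, and its log2(CPM + 1) difference was 0.018 with library size only. That of *Sod3* was -0.015 with limma-voom, with a log2(CPM + 1) difference of 0.011 under library size only, and that of *Mt1* was 0.034 without E5386 and E5642. Leaving out 1 mouse at a time moved the log2 fold change from -0.053 to 0.048 for *Sod1*, -0.10 to 0.16 for *Sod3*, -0.056 to 0.11 for *Ccs*, -0.30 to 0.081 for *Mt1*, -0.24 to 0.035 for *Mt2* and -0.064 to 0.17 for *Mt3*. The log2(CPM + 1) difference then ran from -0.055 to 0.047 for *Sod1*, -0.12 to 0.14 for *Sod3*, -0.061 to 0.10 for *Ccs*, -0.34 to 0.092 for *Mt1*, -0.27 to 0.064 for *Mt2* and -0.079 to 0.17 for *Mt3*. All 12 upper ends are without E5248. The count of all genes called, 14, became 8 with a filter of at least 1 CPM in 4 mice, 78 with common and tagwise dispersions, 1 with the quasi-likelihood test, 25 with DESeq2, 1 with limma-voom, 9 without the muscle list, 67 without E5386 and E5642, and 3 to 98 with 1 mouse left out (3 without E5231, 8 without E5568 or E5642, 53 without E5248, 72 without E5386, 89 without E6732 and 98 without E6578). List genes called, 0, became 1 without E5386 and E5642 and 0 to 2 with 1 mouse left out (2 without E5386, 1 without E6732). The cause was not tested. No paired analysis was possible because the labels carry mouse IDs only, and replicate numbers were given in accession order. The members had 440 counts or more per mouse; how precision would change with depth or with more mice was not tested.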

Other observations

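*mt-Co2*, the second copper-holding mitochondrial subunit of cytochrome c oxidase, was counted 0 to 4 times per mouse and was not tested, while *mt-Co1* stood at 8576 to 14744 CPM. A count this low need not reflect the level of the *mt-Co2* transcript, and its cause was not tested. Of the listed genes not tested, 10 in all, none exceeded 13 counts in any mouse. They were *Mt4*, *Sco2*, *Dbh*, *Aoc1*, *Tyr*, *mt-Co2*, *Slc30a8*, *Nox1*, *Nox3* and *Duox2*. *Slc39a13* (a zinc transporter of the secretory pathway, chosen after its values were seen) and *Cmc1* were the 2 of 88 list genes whose mice did not overlap, beside 3.88% of all tested genes. *Slc39a13* was at 33.7 ± 1.19 CPM in *Ager*-deleted mice and 31.6 ± 1.16 CPM in controls (log2 fold change 0.096, SE 0.057, edgeR exact test adjusted p = 1), and its nearest values, 32.63 and 32.64 CPM, all but touched.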
